A study of Mus musculus with 12 samples.

Results

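Divergent promoter pairs are places where the start sites of a pair of protein-coding genes lie close together on opposite strands, so that the genes are read away from each other. Open chromatin at these places was measured by DNase-seq, in which nuclei are cut with DNase I and the short fragments released are sequenced. A pair was taken from the GENCODE gene records of mm10 on chromosomes 1 to 19 and X where the start sites were at most 1 kb apart and the gene records did not overlap. By this rule 754 pairs were found, which hold 1487 of 21755 coding genes, and 21 genes belong to more than 1 pair. The region of a pair runs from 500 bp beyond one start site to 500 bp beyond the other, and it is called open in a library when a peak overlaps it by at least 1 bp. The comparison set is 20256 other coding promoters, each a 1 kb window centred on a start site, and 12 further genes were left out because their windows met a pair region.

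There were 12 libraries in 5 groups, all from C57BL/6J mice. The LSK group (3 libraries) is lineage-negative, SCA1+ KIT+ stem and progenitor cells taken fresh from marrow. DN1, DN2a and DN2b (2 libraries each) are early T cell precursor stages, in that order, sorted after LSK cells were grown on immobilized Delta1, a Notch ligand; the DN2 cultures received IL-7 and the DN1 cultures did not, so stage and cytokine cannot be told apart. The IgG group (3 libraries) is LSK cells cultured on human IgG with no Notch ligand. No sorting by stage and no IL-7 is described for the IgG cultures. The words with Delta1 below therefore name the set of Delta1-cultured libraries, in which ligand, sorting and IL-7 cannot be told apart. The DN1, DN2a and DN2b libraries can share an isolate of marrow cells, which the labels do not resolve. The tests below treat the 12 libraries as independent and take no account of such sharing. Cultured libraries differ from LSK libraries in culture as well as in ligand.

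Each library is a list of peaks 150 bp wide with a score from 1 to 150 whose meaning is not stated, so scores are used here only as percentiles within a list. Lists held 32952 to 111582 peaks on the chromosomes used, read depth is unknown, and the 3 IgG lists were the shortest. Results are therefore given for lists as deposited and, where the outcome differs, for lists of equal length made of the 32952 highest-scored peaks. In a check of cell identity, of 20 T lineage promoters 3 to 5 were open in LSK libraries, 7 in DN1, 10 in DN2a, 13 or 14 in DN2b and 0 to 2 in IgG. Of 20 myeloid promoters 9 to 12 were open in IgG libraries, 5 in each LSK library, 4 or 5 in DN1 and in DN2a, and 5 or 6 in DN2b. Of 20 progenitor promoters 11 to 13 were open in LSK, 11 or 12 in DN1 and in DN2b, 10 in DN2a and 7 to 10 in IgG, so this list did not separate LSK from DN1 or DN2b. No gene of the T lineage, progenitor or myeloid lists belongs to a divergent pair.

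A divergent promoter, where it is active, is a stretch of open chromatin from which RNA polymerase II can start in either direction. Such promoters are usually rich in CpG dinucleotides and poor in TATA boxes, and many serve genes that nearly every cell uses, among them genes for DNA repair, histones and mitochondrial proteins. Factors known to bind at such promoters include ETS proteins, NRF1, NFY, SP1 and YY1. Imprinted, germ cell and tissue-specific genes also occur in head-to-head pairs.

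The stretches between start sites of 8 pairs are shown because they carry the range of outcomes described here: constantly open textbook pairs, pairs whose rank moved between groups, and pairs without a peak in any IgG library. Sequences are the plus strand of GRCm38.p6 (RefSeq), written 5′ to 3′ and without the start bases themselves. Capitals mark exact matches on either strand to CCAAT (the NFY box; ATTGG on the other strand), GGGCGG (a GC box bound by SP1; CCGCCC on the other strand) or CCGGAAG (an ETS site; CTTCCGG on the other strand). The minus-strand gene is named first in every pair.
Brca1/Nbr1: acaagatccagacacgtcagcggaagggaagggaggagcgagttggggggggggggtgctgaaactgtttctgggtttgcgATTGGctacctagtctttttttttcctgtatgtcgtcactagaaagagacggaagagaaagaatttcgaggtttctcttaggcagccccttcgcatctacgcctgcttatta
Wrap53/Trp53: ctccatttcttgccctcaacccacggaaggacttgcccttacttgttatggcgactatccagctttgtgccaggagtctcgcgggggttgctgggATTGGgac
Mrps12/Sars2: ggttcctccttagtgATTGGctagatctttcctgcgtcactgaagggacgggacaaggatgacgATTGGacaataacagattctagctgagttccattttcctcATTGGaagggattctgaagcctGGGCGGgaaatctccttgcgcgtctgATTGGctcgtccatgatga
Plgrkt/Cd274: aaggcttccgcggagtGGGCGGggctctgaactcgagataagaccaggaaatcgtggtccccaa
Adprm/Sco1: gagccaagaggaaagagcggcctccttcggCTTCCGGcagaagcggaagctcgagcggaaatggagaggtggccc
Ostf1/Nmrk1: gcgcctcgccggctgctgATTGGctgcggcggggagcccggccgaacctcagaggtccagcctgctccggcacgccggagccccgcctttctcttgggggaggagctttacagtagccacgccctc
Tbc1d16/Ccdc40: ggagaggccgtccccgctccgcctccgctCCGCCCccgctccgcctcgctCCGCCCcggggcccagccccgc
Ifit1bl2/Ifit1: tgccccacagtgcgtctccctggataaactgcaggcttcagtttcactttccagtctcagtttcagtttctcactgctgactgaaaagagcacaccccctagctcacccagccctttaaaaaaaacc

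These stretches lie outside both gene records of their pair. They are at chr11:101551956-101552148 (Brca1/Nbr1), chr11:69580256-69580358 (Wrap53/Trp53), chr7:28741821-28741991 (Mrps12/Sars2), chr19:29367391-29367454 (Plgrkt/Cd274), chr11:67052595-67052669 (Adprm/Sco1), chr19:18631824-18631949 (Ostf1/Nmrk1), chr11:119228500-119228571 (Tbc1d16/Ccdc40) and chr19:34640744-34640870 (Ifit1bl2/Ifit1). The Mrps12/Sars2 stretch holds 4 matches to CCAAT in 171 bases. The Ifit1bl2/Ifit1 stretch holds 1 CpG in 127 bases, against 11 in 72 bases between Tbc1d16 and Ccdc40.

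Nearly all pair regions were open in nearly all libraries. The 3 LSK libraries had 92.6, 91.6 and 92.8% of pairs open and the DN1 libraries 93.5 and 92.0%. The DN2a libraries had 92.4 and 90.8%, the DN2b libraries 92.3 and 94.0%, and the IgG libraries 90.1, 86.7 and 89.0%. The 3 IgG libraries were the lowest of the 12, and the lowest of the other 9 was DN2a replicate 2. Wilson 95% intervals on these shares, which cover counting error only, ran from 84.1 to 89.0% for IgG replicate 2 and from 92.1 to 95.5% for DN2b replicate 2, the extremes.

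Over the 12 libraries the share open was 91.5% ± 2.06 (SD, n = 12) for pairs and 43.8% ± 4.60 (SD, n = 12) for other coding promoters. The difference of 47.7 ± 2.68 percentage points (SD, n = 12) had the same sign in 12 of 12 libraries (two-sided exact sign-flip permutation test, p = 4.88e-04, the smallest this test can give). An open pair region held 1.53 ± 0.182 peaks and an open other promoter 1.33 ± 0.109 (SD, n = 12), higher for pairs in 12 of 12 libraries by 0.204 (exact permutation p = 4.88e-04). The median score percentile of the highest peak was 92.0 ± 3.19 in open pair regions and 83.4 ± 4.29 in other open promoters (SD, n = 12), higher for pairs by 8.60 in 12 of 12 libraries (exact permutation p = 4.88e-04). Pair regions are wider than the 1 kb windows of other promoters; with a 1 kb window at the middle of each pair the share still differed by 47.4 points, but the excess of peaks per open region fell to 0.119.

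**Figure D1:**
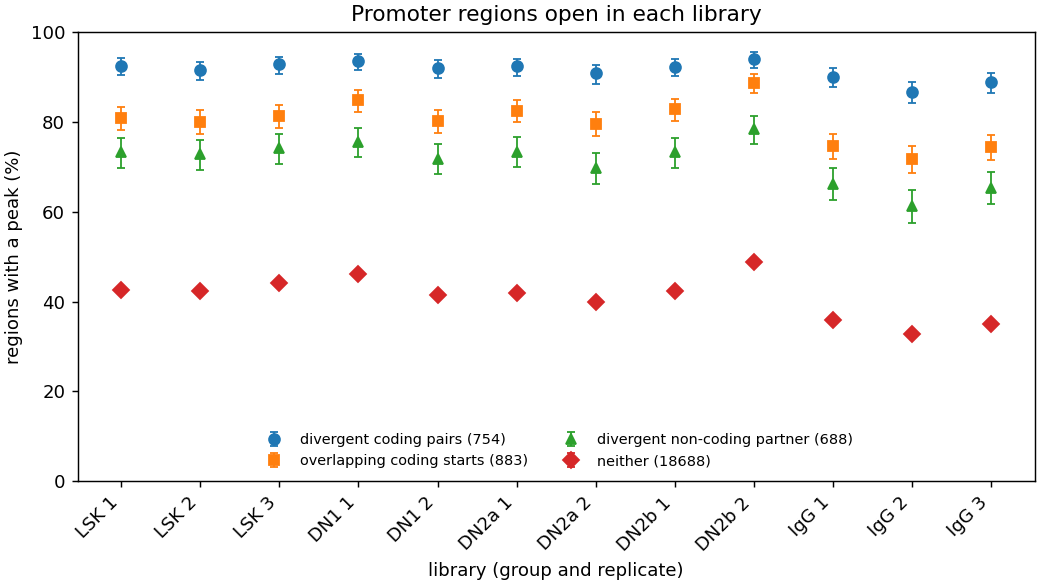
Share of promoter regions with a peak (y axis, percent) in each of the 12 libraries (x axis), with 95% Wilson intervals, for divergent coding pairs, promoters whose coding partner's record overlaps head to head, promoters with a divergent long non-coding gene, and promoters with neither. Divergent pairs lie between 86.7 and 94.0% and are the highest of the 4 sets in every library.

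Other promoters of 3 kinds were set beside the pairs. Promoters with a divergent long non-coding gene within 1 kb (688) were open in 71.3% ± 4.82 (SD, n = 12), which is 20.2 points below the pairs, and lower in 12 of 12 libraries (exact permutation p = 4.88e-04). Promoters of coding genes whose head-to-head partner's record overlaps their own (883, in 457 pairs outside the rule) were open in 80.1% ± 4.72 (SD, n = 12). Those with neither (18688) were open in 41.1% ± 4.60 (SD, n = 12). Peaks per open region were 1.55 ± 0.149 for the overlapping coding set, not below the pairs, and 1.34 ± 0.128 for the non-coding set (SD, n = 12). The median score percentile was 88.2 ± 3.50 for the non-coding set and 87.35 ± 4.69 for the overlapping coding set (SD, n = 12). Both lay between the 92.0 of the pairs and the 83.4 of other promoters together. For the share open, the 4 sets stood in the same order in every library, with divergent coding pairs at the top and promoters without a close partner at the bottom.

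Most pairs were open in every library. Of 754 pairs, 635 (84.2%) were open in all 12 libraries, 39 (5.17%) in none and 80 (10.6%) in some. Among other promoters 31.0% were open in all 12, 43.0% in none and 26.0% in some. The sets most like the pairs lay between, with 64.3% open in all 12 and 8.61% in none for overlapping coding promoters, and 57.8% and 18.5% for those with a divergent non-coding gene. With lists at equal length 627 pairs were open in all 12 libraries and 55 in none.

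CpG content differed in the same direction as openness. The observed/expected CpG ratio, counted in a 1 kb window, had a median of 0.773 in pairs and 0.518 in other promoters, and was 0.6 or more in 84.7% of pairs and 43.5% of others. Pairs were more often open than others of like CpG content, except in the lowest class. The window was centred on the middle between the start sites for pairs and on the start site itself for others. A pair window thus holds both starts of its pair, and the part of this in the gap was not tested. In windows with a ratio of 0.6 to 0.8 the share open was 94.5% ± 2.23 for 314 pairs and 71.7% ± 6.50 for 4976 other promoters (SD, n = 12), and at 0.8 to 1.0 it was 97.8% ± 1.81 for 299 pairs and 82.4% ± 5.24 for 3490 others. At 0.4 to 0.6 the gap was widest, 80.2% ± 4.05 for 80 pairs against 44.4% ± 7.46 for 2886 others. Pairs were higher in 12 of 12 libraries in each class of 0.2 or more. Below 0.2, where there were 13 pairs, 5.13% ± 3.79 of pairs and 5.42% ± 1.40 of others were open, and pairs were the higher in 6 of 12 libraries. Over all regions with a ratio of 0.6 or more the pairs exceeded the others by 19.9 ± 4.13 points (SD, n = 12, exact permutation p = 4.88e-04).

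**Figure D2:**
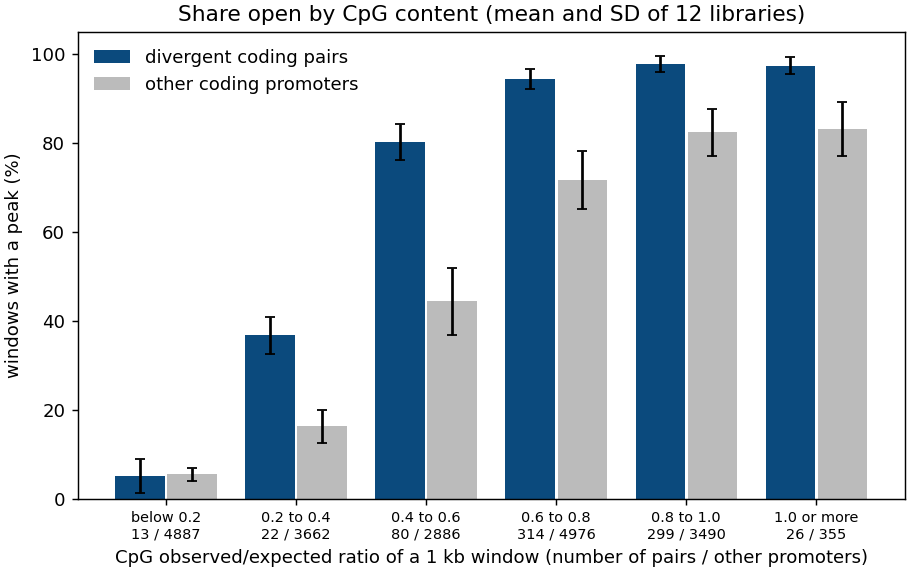
Share of 1 kb windows with a peak (y axis, percent, mean and SD of 12 libraries) by observed/expected CpG ratio (x axis, with the number of pairs and of other promoters under each class). Bars of pairs stand above those of other promoters in every class except the lowest, where they are 5.13 and 5.42%.

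The start sites of a pair were a median of 130 bp apart (quartiles 67.0 and 240.0 bp, range 1 to 987 bp). Openness changed little with this distance up to 500 bp, at 90.2 to 94.4%, and was 81.0% ± 2.88 (SD, n = 12) for the 70 pairs with starts more than 500 bp apart, whose median CpG ratio was also lower at 0.627. Where the peaks lay did change. For starts 1 to 100 bp apart, 71.7% ± 3.17 (SD, n = 12) of open regions had both start sites covered, by 1 peak or by separate peaks, and 87.6% ± 1.46 had their highest peak within 100 bp of the middle. Between 200 and 300 bp the highest peak was still within 100 bp of the middle in 75.6% ± 3.51 of open regions, and between the start sites in 81.3% ± 4.38. Beyond 500 bp it was within 100 bp of the middle in 8.12% ± 1.76, and peaks per open region rose from 1.42 ± 0.160 in the closest class to 1.99 ± 0.265 (SD, n = 12). Wider regions hold more room for peaks; in a fixed 1 kb window the values were 1.39 ± 0.150 and 1.64 ± 0.138.

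**Figure D3:**
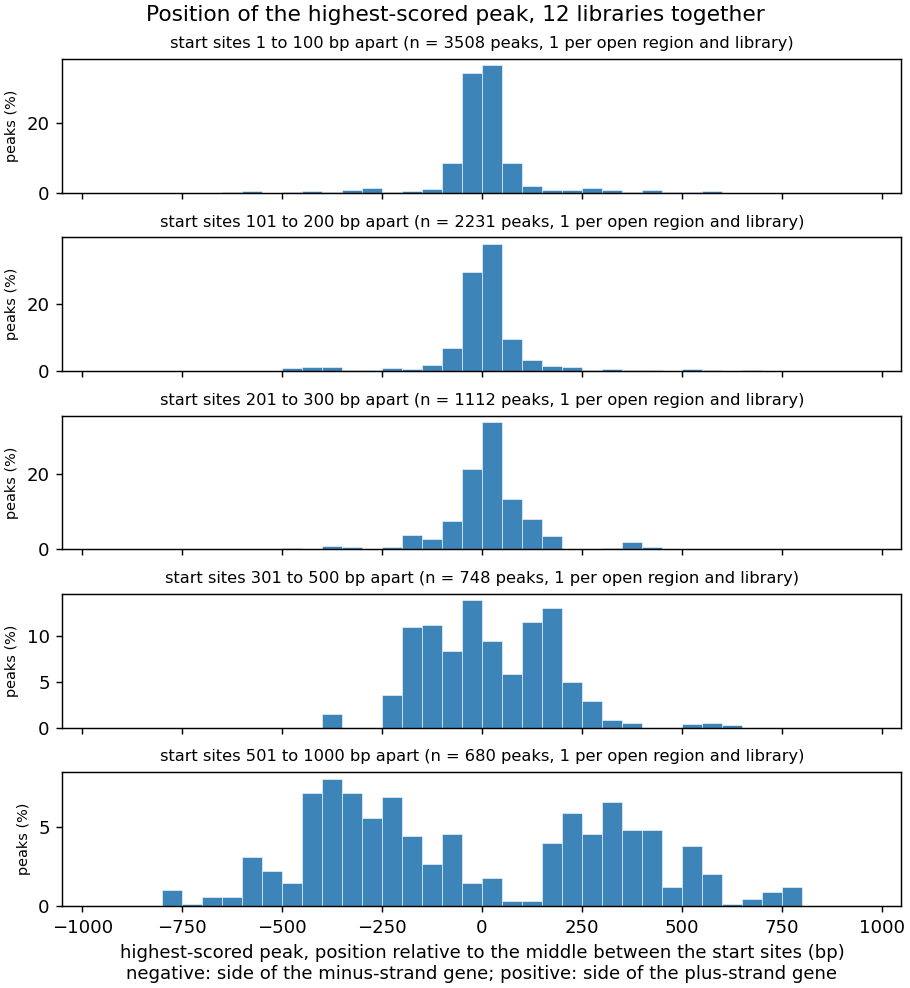
Position of the highest-scored peak of each open pair region relative to the middle between the start sites (x axis, bp; negative towards the minus-strand gene), as a percentage of peaks in 50 bp bins (y axis), for 5 classes of distance between start sites, 12 libraries together. Peaks gather at the middle up to 300 bp and fall into separate groups on either side of it beyond 500 bp.

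Pairs taught as head-to-head examples were open throughout wherever they met the rule. Brca1/Nbr1 joins the gene of a DNA repair protein to that of an autophagy receptor, with starts 194 bp apart. Its score percentile was 99.9, 99.7 and 99.8 in LSK, 99.5 and 99.8 in DN1, 97.7 and 98.8 in DN2a, 97.4 and 98.8 in DN2b, and 97.7, 95.1 and 95.6 in IgG. LSK and DN1 libraries were the high ones here, and IgG replicates 2 and 3 the lowest. Atm/Npat (307 bp), a DNA damage kinase beside an activator of histone genes, ranged from 96.5 to 99.7, Mcm4/Prkdc (466 bp), a replicative helicase subunit beside the catalytic subunit of DNA-dependent protein kinase, from 95.7 to 99.4, and Gart/Son (554 bp), a purine synthesis enzyme beside a splicing factor, from 97.1 to 99.9. For these 3 pairs the ranges of the IgG libraries overlapped those of the others in lists as deposited. In equal lists Mcm4/Prkdc was higher in IgG (98.57 to 99.28) than in the other 9 libraries (92.03 to 98.27).

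The Wrap53/Trp53 pair, which holds the gene of the p53 tumour suppressor, reached 94.9, 90.6 and 94.7 in LSK, 99.0 and 95.2 in DN1, 96.8 and 95.8 in DN2a, 98.9 and 96.9 in DN2b, and 76.9, 74.1 and 86.3 in IgG. The 6 Delta1-cultured libraries were all above the 3 LSK libraries, and the IgG libraries were below both. In lists of equal length the Delta1-cultured and LSK libraries overlapped, with 89.7 to 98.0 and 84.4 to 91.6. Mrps12/Sars2, a mitochondrial ribosomal protein beside mitochondrial seryl-tRNA synthetase, held exactly 2 peaks in every library at percentiles of 99.2 to 99.8 in the Delta1-cultured libraries and 97.1 to 98.2 in the LSK and IgG libraries, with no overlap. In equal lists these sets overlapped.

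Several textbook pairs fall outside the rule because their gene records overlap. Hspd1/Hspe1 (the mitochondrial chaperonins), Tap1/Psmb9, Surf1/Surf2, Ppat/Paics, Sirt3/Psmd13 and Fen1/Tmem258 were each open in 12 libraries, whereas Col4a1/Col4a2, type IV collagen chains, were open in 0. Cd3g/Cd3d, subunits of the T cell receptor complex with starts 1355 bp apart, had a peak in 4.

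Among the 635 pairs open in every library, 423 (66.6%) had a median percentile of 90 or more and 0 had 50 or less. The highest were Srgap2/Fam72a at 99.9 (99.28 to 99.97 over the libraries), Hjurp/Trpm8 at 99.9, and Tbc1d10b/Mylpf, Prr11/Ska2 and Cdca2/Kctd9 at 99.8. Hjurp is the chaperone of the centromeric histone, Ska2 a kinetochore protein and Cdca2 a phosphatase subunit of mitosis. The lowest were Dclre1a/Nhlrc2 at 54.9 (26.2 to 74.2), Stap2/Mpnd at 58.8, Acvr1/Upp2 at 61.5, Entr1/Pmpca at 65.5 and Timm9/2700049A03Rik at 67.0.

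Most pairs of the gene classes with 8 pairs or more, taken by symbol, were open in every library. Histone genes gave 14 pairs, 11 open in all 12 libraries and 3 in none. Mitochondrial ribosomal proteins gave 18 pairs, 16 open in all 12, with Eme2/Mrps34 open in 11 and Zfp661/Mrps5 in 10. Other mitochondrial genes (respiratory chain subunits, import proteins and carriers) gave 24 pairs, 23 open in all 12, with Ndufa1/Rnf113a1 open in 11. The proteasome symbols gave 8 pairs, all open in 12 libraries, among them Psmb1/Tbp, a core particle subunit beside the TATA-binding protein. Ribosomal symbols gave 10, 9 open in all 12 (1 of them Rps6kb1, a kinase rather than a ribosomal protein). Zinc finger genes gave 19 pairs, of which 14 (73.7%) were open in all 12, against 47.5% of 375 zinc finger promoters outside pairs. Outside pairs the share open in all 12 was 75% for histone genes (78.6% in pairs), 61.7% for mitochondrial ribosomal genes (88.9%), 68.3% for other mitochondrial genes (95.8%), 73.9% for ribosomal symbols (9 of 10 pairs) and 81.0% for proteasome symbols (8 of 8). Olfactory receptors (1135 promoters outside pairs) and keratins (113) gave 0 pairs, and protocadherins gave 1, Pcdh12/Rnf14, open in 0 libraries.

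The 3 histone pairs without a peak do not stand alike. Hist1h2bq/Hist1h2ao and Hist1h2ap/Hist1h2br have CpG ratios of 0.975 and 0.966, but 0% of the 32-base windows of their regions occur once in the genome, so reads of that length could not be placed uniquely there. The third, Hist1h2ba/Hist1h2aa, encodes testis-specific histones and has 83.5% of its windows unique. Closed is therefore not shown for the duplicated pairs. The share of unique windows was under 50% for 5 pairs with no peak in any library, 1 open in some and 8 open in all.

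The 39 pairs with no peak in any library were poor in CpG. Their median ratio was 0.345 (quartiles 0.187 and 0.487), against 0.684 for pairs open in some libraries and 0.787 for those open in all, and 34 of the 39 were below 0.6. Examples chosen after their values were seen include genes known for other tissues. Col4a4/Col4a3 encode collagen chains of the glomerular basement membrane, Kirrel2/Nphs1 encode nephrin and a relative of it, and Bhmt2/Dmgdh are enzymes of choline metabolism. Germ cell genes were present in Tssk3/Fam229a, Dgcr2/Tssk2, Patl2/Terb2 and Lypd4/Dmrtc2. Smyd1/Cd8b1 (chr6, 555 bp apart, CpG ratio 0.190) pairs a muscle methyltransferase with the CD8 beta chain, a co-receptor of T cells at later stages than those sorted here, and had 0 peaks in 12 libraries. So did Peg3/Usp29, an imprinted pair with 147 bp between starts and a CpG ratio of 0.5999.

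Some closed pairs have another annotated start for one of their genes. Of the 39, 26 have a coding transcript that starts outside the pair region by more than its flank, and in 7 such a start was open in all 12 libraries. Of the 635 pairs open throughout, 321 have another start and 54 have one open in all 12, and of the 80 open in some libraries these counts are 35 and 13. Pinlyp/Xrcc1, with the gene of a DNA repair scaffold, was closed and has 0 other coding starts outside its region. For Rps2, a ribosomal protein gene paired with Rnf151, the open start lay 1947 bp away. Trim28, a co-repressor paired with Slc27a5, had an open start 25038 bp away, and Ostm1, paired with the neural factor gene Nr2e1, 95094 bp away. In these 7 pairs the start taken from the gene record was therefore not the only annotated one, and another one carried a peak.

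Differences between the 5 groups were small beside the difference between pairs and other promoters. The share of pairs open was 92.4% ± 0.627 (n = 3) in LSK, 92.8% ± 1.03 (n = 2) in DN1, 91.6% ± 1.13 (n = 2) in DN2a, 93.2% ± 1.22 (n = 2) in DN2b and 88.6% ± 1.69 (n = 3) in IgG (mean ± SD). Groups accounted for 0.779 of its variance (exact permutation over 138600 divisions, p = 0.0232, adjusted p = 0.0232 by Benjamini-Hochberg over 3 results). In lists of equal length the group means ran from 88.2% in IgG to 90.7% in DN2b, and the share of variance was 0.706 (exact permutation p = 0.0317, adjusted p = 0.0712). Without DN2b replicate 2, the longest list, the test on deposited lists gave 0.777 (exact permutation, adjusted p = 0.0533).

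The distance between pairs and other promoters also varied by group. It was 46.6 points for LSK, 46.3 for DN1, 48.0 for DN2a, 44.8 for DN2b and 51.3 for IgG, where 37.3% of other promoters were open against 45.7% in LSK. Groups accounted for 0.786 of the variance of this difference (exact permutation p = 0.0110, adjusted p = 0.0166), and for 0.659 at equal list lengths (exact permutation p = 0.0475, adjusted p = 0.0712), where the group means drew together to between 50.4 and 51.7 points. Open pair regions had a median score percentile of 92.7 (LSK), 94.7 (DN1), 93.1 (DN2a), 94.4 (DN2b) and 87.3 (IgG). Its share of variance was 0.869 (exact permutation p = 0.00483, adjusted p = 0.0145), and at equal list lengths 0.666 (exact permutation p = 0.0824, adjusted p = 0.0824) with group means from 86.2 to 88.0. None of the 3 results passed at equal list lengths over all regions. The IgG lists were the shortest as deposited, and the part of list length in the group differences was not tested further. Among 1 kb windows with a CpG ratio of 0.6 or more the second result did pass at equal list lengths (0.827, exact permutation p = 0.00754, a setting added after seeing the data), whereas over the full regions, in the upper 50% of each list, a planned setting, it was 0.298 (exact permutation p = 0.582). Peaks per open pair region, for the groups in the same order, were 1.44, 1.70, 1.61, 1.77 and 1.32, and at equal list lengths 1.31, 1.37, 1.40, 1.44 and 1.29.

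Pairs that switched with a condition were few. A pair was called when each library of a first set had a peak there and each library of a second set had none, with no test; the percentages are over all 21010 regions, pairs and other promoters together. Of the 754 pairs, 0 gained a peak with Delta1 (the 6 Delta1-cultured libraries against the 6 LSK and IgG libraries; 0.305% of regions were called) and 0 lost one (0.0381%). The same held for the 4 DN2 libraries against the other 8, with 0 pairs in either direction (0.0809 and 0.0524% of regions), and 0 pairs were open in IgG libraries alone (0.20%). Open in the 9 other libraries and closed in IgG were 4 pairs (0.531% of pairs, 1.53% of regions). Open in the 3 LSK libraries and closed in the 3 IgG libraries were 8 pairs (1.06% of pairs, 3.72% of regions), and the reverse held for 1, Ccnt1/4930415O20Rik (0.133% of pairs, 0.328% of regions). In these last 3 comparisons the shares of pairs called were below those of all regions. With a library left out, 4 to 10 pairs were closed in IgG alone and 8 to 15 were open in LSK and not IgG. Over the other settings run these counts were 0 to 25 and 4 to 30. Among regions open in some libraries only, the LSK call was made for 8 of 80 pairs and 774 of 5268 other promoters (14.7%), the call of closed in IgG alone for 4 and 317 (6.02%), and that of open in IgG but not LSK for 1 and 68 (1.29%). Only these 80 pairs could be called. Where 0 were, the share of such other promoters was 1.22% for gained with Delta1 and 0.152% for lost. For the DN2 libraries it was 0.323 and 0.209%, and for IgG alone 0.797%. A count of 0 of 80 pairs lies near shares this small.

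At equal list lengths the called pairs were partly others. Again 0 pairs gained a peak in the Delta1-cultured libraries alone (0.181% of regions), and Lrrc74b/P2rx6 was the 1 pair lost from them (0.129%). For the DN2 libraries 0 pairs were called in either direction (0.190 and 0.105%). S100a1/S100a13 and Ccnt1/4930415O20Rik were open in IgG libraries alone (2 pairs, 0.443% of regions), and 0 pairs were open in all but IgG (0.60%). Against LSK, 5 pairs were closed in IgG (1.77%) and 2 open in it (0.60%). Spata17/Gpatch2, Tbc1d16/Ccdc40 and Ifit1bl2/Ifit1 were called as open in LSK and closed in IgG with both kinds of list. In the IgG group openness at myeloid promoters was also higher (above), and its part in these calls was not tested.

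Tbc1d16/Ccdc40 had the highest median percentile of the 4 pairs closed in IgG alone. Tbc1d16 encodes a GTPase-activating protein of Rab proteins and Ccdc40 a protein of motile cilia. Its percentile was 77.3, 72.2 and 77.1 in LSK, 74.2 and 51.5 in DN1, 66.1 and 74.98 in DN2a, and 63.1 and 84.2 in DN2b, with no peak in the 3 IgG libraries. Spata17/Gpatch2 (43 bp apart) lay lower, at 43.7, 57.2 and 48.7 in LSK and 38.1 to 62.2 in the Delta1-cultured libraries, and N4bp3/D930048N14Rik at 35.7 to 82.9 over the same 9 libraries. Zfp944/Zfp758, a pair of zinc finger genes, had percentiles of 6.20 to 54.7, and 52.3% of its 32-base windows are unique. In lists of equal length this last pair had a peak in 1 library.

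Another 4 pairs had LSK peaks and no IgG peak in lists as deposited. Sgce/Peg10, an imprinted pair, had a peak in the 3 LSK libraries alone, at percentiles of 30.2, 49.2 and 32.1, and in 1 LSK library at equal list lengths. Ifit1bl2/Ifit1, interferon-induced genes, was open in 8 libraries, with 68.9, 62.1 and 52.7 in LSK, 52.2 and 40.7 in DN1, 53.1 in DN2a replicate 1 and none in replicate 2, and 50.8 and 72.3 in DN2b. Its CpG ratio of 0.118 was the lowest of the pairs open in any library. Smc1b/Ribc2 (a meiotic cohesin subunit beside a ciliary protein) was open in 6 libraries at percentiles of 8.33 to 24.2, and Kctd19/Lrrc36 in 7 at 6.20 to 58.1. Cfap52/Stx8 and Acyp1/Zc2hc1c were called at equal list lengths only, with LSK percentiles of 16.0 to 39.9 and 60.3 to 72.2 there, and each had a peak in 1 IgG library as deposited (12.2 and 8.78).

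In lists as deposited, the pairs called for IgG at equal list lengths also had peaks in other libraries. S100a1/S100a13 encode calcium-binding proteins with starts 43 bp apart. The percentiles were 69.8, 58.8 and 46.9 in IgG, 24.2, 31.6 and 32.1 in LSK, 33.6 in DN1 replicate 1, 37.1 in DN2a replicate 1 and 62.2 in DN2b replicate 2, with no peak in the other 3 libraries. Ccnt1/4930415O20Rik, with cyclin T1, reached 20.8, 17.0 and 29.5 in IgG, 33.6 in DN1 replicate 1, 34.9 in DN2a replicate 1 and 3.95 and 42.9 in DN2b, and 0 of 3 LSK libraries had a peak. Lrrc74b/P2rx6, with a gene of an ATP-gated channel, ranked highest in LSK. It stood at 85.3, 82.0 and 90.1 in LSK, 54.0, 45.9 and 66.9 in IgG, and 56.6, 22.4 and 28.9 in the 3 Delta1-cultured libraries that had a peak.

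**Figure D4:**
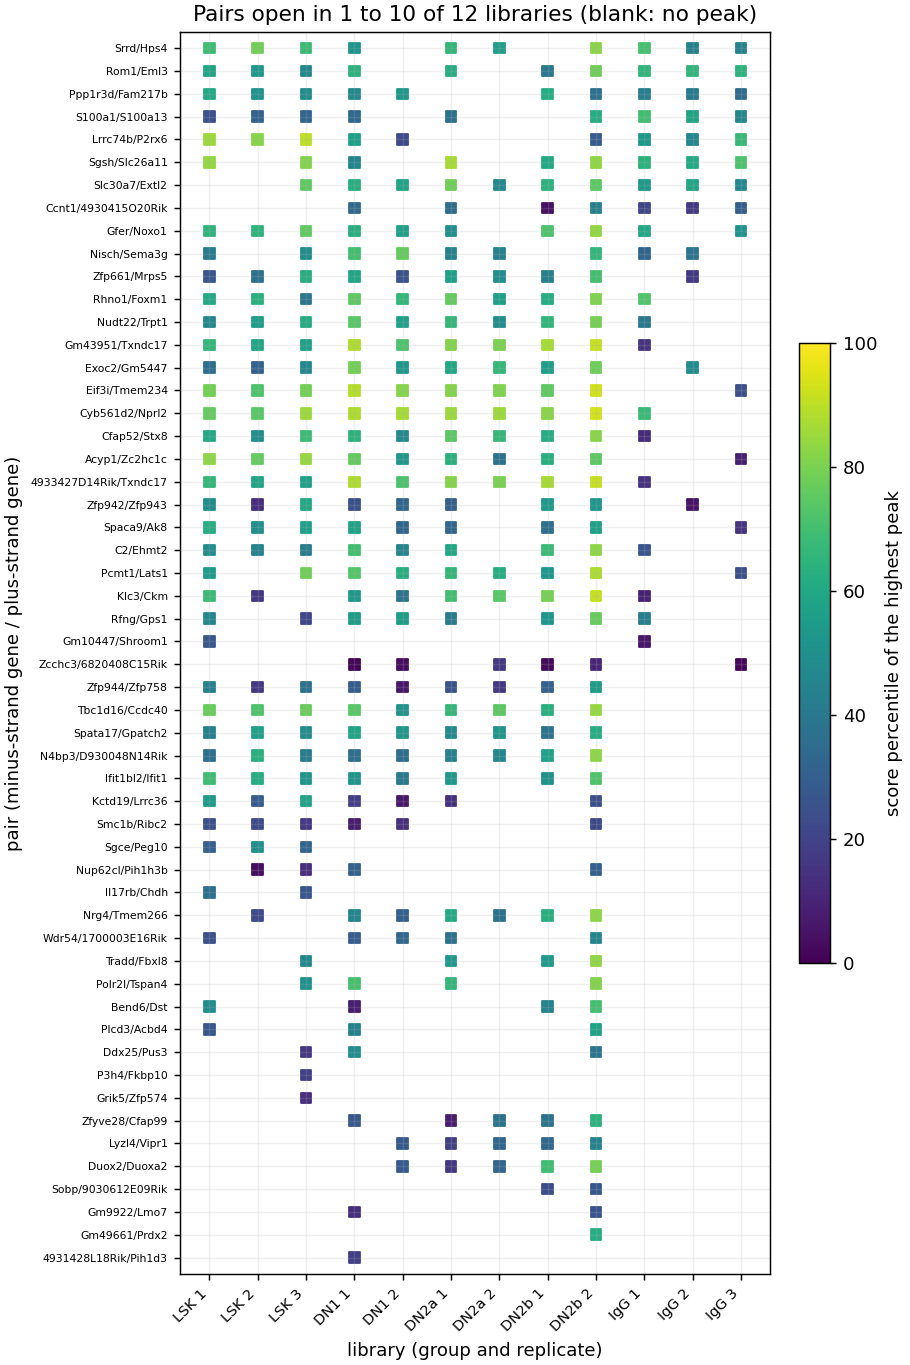
Pairs open in 1 to 10 of the 12 libraries (rows), with 1 square per library (columns) that has a peak, coloured by the score percentile of the highest peak in the region; no square means no peak. IgG columns hold the fewest squares, and the DN2b replicate 2 column the most.

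Of the 80 pairs open in some libraries only, 26 were open in 11. The missing library was IgG replicate 2, the shortest list, for 19 of these, IgG replicate 3 for 4, IgG replicate 1 for 2 and DN2a replicate 1 for 1 (Hspa1a/Hspa1l, heat shock genes with 62.4% of windows unique). Among all 80, IgG replicate 2 had a peak in 19 and DN2b replicate 2, the longest list, in 74. The shortest list thus had the fewest of these pairs open and the longest list the most.

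With regions as defined above, lists as deposited and all libraries, no pair met the full rule for opening with Delta1. Other settings gave at most 1 such pair, and leaving out a library at most 2. The pairs nearest to the rule were chosen after their values were seen. Duox2/Duoxa2, a dual oxidase and its maturation factor, was open in 5 of 6 Delta1-cultured libraries, at 27.8 in DN1 replicate 2, 16.1 and 32.6 in DN2a and 68.9 and 79.0 in DN2b, and in 0 of 6 others. Lyzl4/Vipr1, with the receptor of vasoactive intestinal peptide, had the same libraries, at 27.8, 18.4, 32.6, 33.3 and 44.3. Zfyve28/Cfap99 was open in the Delta1-cultured libraries except DN1 replicate 2. Nrg4/Tmem266 had peaks in the 6 of them and in LSK replicate 2. With lists of equal length the number of libraries with a peak was 2 for Duox2/Duoxa2, 0 for Lyzl4/Vipr1 and Zfyve28/Cfap99, and 3 for Nrg4/Tmem266.

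Among pairs open in every library, rank within the list could still move. The percentile was higher in every Delta1-cultured library than in any LSK or IgG library for 43 of 635 pairs (6.77%), where 7.61% of all 6909 regions open in 12 libraries were called, and lower for 0 (0.159%). It was lower in every IgG library than in any of the other 9 for 253 pairs (39.8%; 38.5% of regions) and higher for 2 (0.315%; 0.651% of regions). The shares of pairs were near those of all regions. The median difference of IgG from the rest over always-open regions was -5.58 percentile points in pairs and -8.16 in other promoters. At equal list lengths it was -0.86 and -0.96, and the counts were 18 pairs higher (2.87%; 2.32% of 6549 regions) and 9 lower with Delta1 (1.44%; 3.08%), and 22 higher (3.51%; 5.30%) and 93 lower in IgG (14.8%; 11.9%). The 18 and the 93 were all among those called from the lists as deposited.

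Plgrkt/Cd274 had the largest difference between the Delta1-cultured libraries and the pooled LSK and IgG libraries (36.1 percentile points). Plgrkt encodes a plasminogen receptor and Cd274 the immune checkpoint ligand PD-L1. The region held exactly 1 peak in every library, at percentiles of 81.7, 80.6 and 74.6 in LSK, 93.0 and 89.1 in DN1, 94.5 and 89.1 in DN2a, 94.2 and 96.1 in DN2b, and 32.3, 32.4 and 37.6 in IgG. The 3 sets did not overlap, with IgG far below LSK and the Delta1-cultured libraries above it. The Delta1-cultured mean was 92.7 and the LSK mean 79.0, against an IgG mean of 34.1. In equal lists they still did not overlap, at 77.1 to 89.1 for Delta1, 51.8 to 70.1 for LSK and 22.9 to 32.4 for IgG.

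Cep76/Psmg2, a centriole protein beside a proteasome assembly chaperone, was next in the pooled comparison (34.3 points), with a Delta1-cultured mean of 84.2 against 65.6 in LSK. It stood at 65.0, 63.6 and 68.3 in LSK, 88.3 and 75.4 in DN1, 82.6 and 90.1 in DN2a, 79.7 and 88.9 in DN2b, and 37.5, 14.2 and 50.9 in IgG. At equal list lengths the Delta1-cultured libraries, at 48.2 to 82.6, again lay above the LSK and IgG libraries, the highest of which was at 44.1. Rbak/Spdye4b and Sirt6/Ankrd24 were higher with Delta1 than in the pooled LSK and IgG libraries by 27.9 and 24.4 percentile points. Their Delta1-cultured means were 88.0 and 91.0, and their LSK means 82.4 and 79.7. Sirt6/Ankrd24, with the gene of a histone deacetylase, was again called at equal list lengths and Rbak/Spdye4b was not.

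Lower ranks with Delta1 appeared at equal list lengths only. Shld2/Glud1, a shieldin subunit of DNA repair beside glutamate dehydrogenase, was at 81.8, 81.6 and 74.98 in LSK, 63.6 and 71.3 in DN1, 52.2 and 49.4 in DN2a, 65.8 and 52.1 in DN2b, and 96.0, 89.1 and 86.7 in IgG. The Delta1-cultured libraries lay below LSK and IgG above it. The same difference was -17.6 points for Rad9b/Vps29, -13.7 for Rpl9/Lias (lipoic acid synthase beside a ribosomal protein), -13.5 for Lsr/Fam187b and -9.42 for Idh1/Pikfyve, which holds isocitrate dehydrogenase 1.

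Ostf1/Nmrk1, an osteoclast-stimulating factor beside nicotinamide riboside kinase, ranked highest in IgG. As deposited it was at 96.9, 90.9 and 91.0 in IgG, 84.2, 77.7 and 79.4 in LSK, 87.1 and 72.7 in DN1, 84.5 and 82.7 in DN2a and 76.8 and 87.8 in DN2b, while the median over all open pairs was lowest in IgG. In equal lists the difference between IgG and the other 9 was 30.6 points. Cdr2/Mfsd13b was the other pair higher in IgG as deposited (96.7 to 97.6 against 84.6 to 96.6). Shld2/Glud1, Cnppd1/Retreg2 and Exoc8/Sprtn joined them at equal list lengths, by 24.8, 18.2 and 15.7 points.

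Adprm/Sco1 had the largest drop in IgG relative to the rest in lists as deposited. Sco1 is a copper chaperone of cytochrome oxidase assembly. The pair was at 26.6, 26.2 and 29.5 in IgG, 85.9, 85.2 and 88.8 in LSK, 83.1 and 80.0 in DN1, 84.5 and 73.1 in DN2a and 80.3 and 92.7 in DN2b. The difference of means was -56.3 percentile points, and -45.7 at equal list lengths, where Plgrkt/Cd274 came first with -48.8. Plgrkt/Cd274 (-54.0), Hepacam2/Vps50 (-51.4), Fam229b/Tube1 (-50.8) and Ankib1/Krit1 (-50.0) were next as deposited; Tube1 encodes epsilon-tubulin and Krit1 a protein of endothelial junctions. LSK libraries of these 3 last pairs overlapped the Delta1-cultured ones, so the low values were those of IgG. In equal lists the difference was -40.6 for Hepacam2/Vps50 and -38.2 for Fam229b/Tube1, with Stxbp4/Cox11 (-40.6) level with the first and Tti1/Rprd1b (-39.5) and Rbak/Spdye4b (-39.1) between them. Ankib1/Krit1 was no longer called, since DN2a replicate 1 was at 9.59, below the 3 IgG libraries at 10.3 to 23.1.

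**Figure D5:**
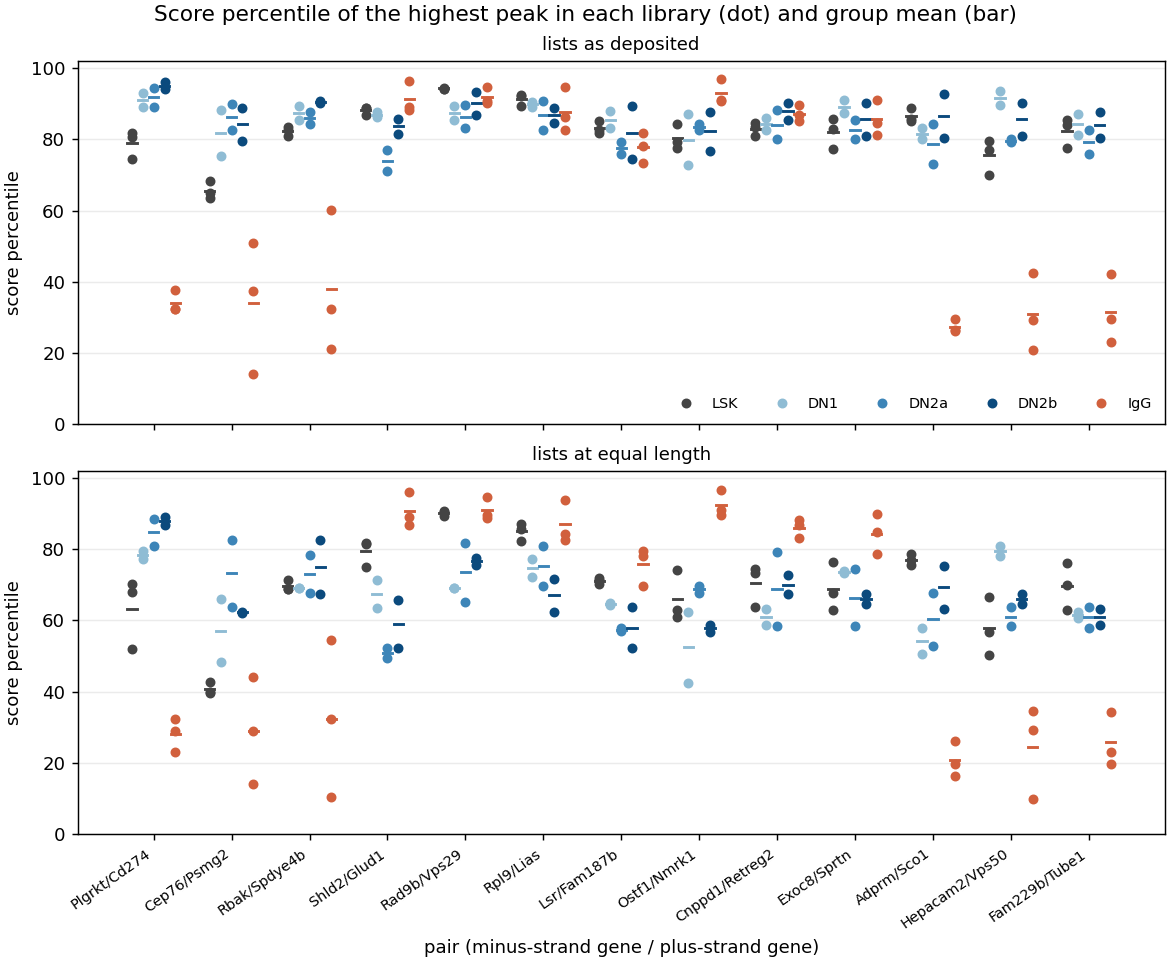
Score percentile of the highest peak (y axis) of 13 pairs named for their change between groups (x axis), in lists as deposited (upper panel) and at equal length (lower panel); dots are libraries and bars group means. IgG libraries stand apart below the rest for Plgrkt/Cd274, Adprm/Sco1, Hepacam2/Vps50, Fam229b/Tube1 and Rbak/Spdye4b in both panels, and above the rest for Ostf1/Nmrk1.

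The promoters of paired genes differed from others in short sequence words. Words were searched on both strands from 250 bp before to 50 bp after each start site, and the windows of close pairs overlap, so a word can be counted for each gene of a pair. With an upper quartile of 240 bp between starts, the window of most paired genes also takes in the partner's start. The part of this in the differences below was not tested. CCGGAAG, the ETS site shown between Adprm and Sco1, was in 27.3% of 1487 paired genes and 9.67% of 20256 other genes (10.9% of all coding genes). With CpG ratios of 0.6 or more the shares were 29.4 and 17.0%. AAGATGGC, bound by YY1, was in 8.20 and 2.55% (2.93% of all), and GCGCATGC, bound by NRF1, in 6.73 and 3.16% (3.40% of all). TGACGTCA, the CREB site, was in 4.51 and 2.30% (2.46% of all), and the E-box CACGTG in 11.4 and 7.55% (7.81% of all). GGGCGG was in 68.9 and 41.5% (43.4% of all), but in 72.3 and 70.0% where the CpG ratio was 0.6 or more. At that CpG content GCGCATGC was in 7.6 and 5.93%, CACGTG in 12 and 11.02%, TGACGTCA in 5.20 and 3.70%, and AAGATGGC in 9.12 and 4.09%. CCAAT was in 44.0 and 38.5% (38.9% of all), and in 44.6 and 37.1% at that CpG content. TATAAA was rarer in paired genes, with 4.10 and 13.3% (12.7% of all), as was TGTGGTT, the RUNX site, with 2.29 and 5.32% (5.11% of all); at that CpG content these words were in 3.84 and 6.62% and in 1.84 and 3.07%. Of these 9 words 7 were more frequent and 2 less frequent in paired genes; these are descriptions of the sequence, and no binding was measured.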

How the data were processed

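Adapters were removed by the authors, read pairs were placed on mm10 by bwa, and hotspot2 (cutoff on the false discovery rate 0.05) gave a peak list for each library. The submitters' processing notes name BWA 0.7.12 and SAMtools 1.2. The deposited score of each peak has no stated meaning, and per the file names the lists rest on uniquely mapped reads. Depth per library is not known, and no list was identical to another.

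Gene records were GENCODE M21 and the genome GRCm38.p6. The score was converted to a percentile within its library. Pairs were compared with other promoters within each library by an exact sign-flip test over 12 libraries, and groups by eta squared with an exact permutation test. The p-values measure the spread between these libraries. Both tests treat the 12 libraries as independent, although DN1, DN2a and DN2b libraries can share an isolate of marrow cells. Calls between groups carry no test. Code was checked on simulated data (Python 3.11.15, numpy 2.4.6, pandas 2.3.3, scipy 1.17.1, pysam 0.24.0, matplotlib 3.10.9).

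The pairs, gene lists and words were chosen with earlier results of these data known. Named pairs are textbook examples, up to 5 pairs per called set by median percentile, the 5 highest and lowest always-open pairs, the 5 with the largest non-overlapping percentile difference in each direction, and gene classes by symbol. A textbook pair and a pair with a percentile difference are not reported here. Other pairs are examples chosen after their values were seen. Alternatives were equal list lengths, the upper 50% of each list, peak midpoints, starts within 500 bp, flanks of 250 bp, 1 kb windows, each gene by its own start, 1 pair per overlapping stretch, CpG ratio of 0.6 or more, no predicted genes, non-coding partners as the comparison, and each library left out. Adding overlapping head-to-head pairs, and 1 kb windows combined with equal lists or CpG content, were chosen after seeing the data.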

Additional observations from a re-analysis of the deposited data

Results flagged for a closer look

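The excess of pairs over other promoters in share open differed between the 5 groups by a test of the difference itself: groups accounted for 0.786 of its variance (exact permutation test over 138600 divisions, adjusted p = 0.0166). As deposited the excess was 51.15 to 51.41 percentage points in the 3 IgG libraries and 42.45 to 48.26 in the other 9, so the IgG libraries did not overlap them. Pairs were open in 92.4% in LSK and 88.6% in IgG, and other promoters in 45.7 and 37.3%. The excess was tested in percentage points only, and other scales were not tested. The IgG lists were the shortest, and DN2b replicate 2, with the smallest excess, had the longest. Between these extremes the excess did not follow list length strictly. It was 46.10 to 47.26 in LSK (53869 to 62377 peaks) and 47.70 to 48.26 in DN2a (57729 and 68478 peaks). The part of list length in the excess was not tested. At equal list lengths the exact permutation test gave an adjusted p of 0.0712. The excess there was 50.4 points in LSK, 51.7 in DN2a, 51.4 in DN2b and 51.5 in IgG, so IgG no longer stood apart. In the upper 50% of each list 0.298 of the variance lay between groups (exact permutation p = 0.582). Among 1 kb windows with a CpG ratio of 0.6 or more, a setting added after seeing the data, the result did pass at equal list lengths (above).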

How the results depend on the processing

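The 3 differences between pairs and other promoters kept their sign in each of the alternatives run, with an exact permutation p of 4.88e-04, or 9.77e-04 with a library left out, the smallest each number of libraries allows: the share difference ranged from 19.8 to 51.2 points, peaks per open region from 0.0854 to 0.289 and the percentile from 3.87 to 10.7. The group tests did not. At equal list lengths eta squared was 0.706 for the share of pairs, 0.659 for the difference and 0.666 for the percentile, none past the threshold; with 1 kb windows besides they were 0.644, 0.642 and 0.598. The difference gave 0.298 (p = 0.582, exact permutation) in the upper 50% of each list. With 1 kb windows, equal lists and CpG ratios of 0.6 or more the difference gave 0.827 (exact permutation p = 0.00754). With a library left out eta squared was 0.747 to 0.839, 0.735 to 0.931 and 0.835 to 0.921, and the share of pairs missed the threshold without DN2b replicate 2 (0.777).

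Counts of called pairs were small and moved. Equal list lengths gave 1 pair lost with Delta1, 2 open in IgG alone, 0 closed in IgG alone, 5 in LSK and not IgG and 2 in IgG and not LSK; with 1 kb windows besides these were 1, 2, 0, 4 and 3. The upper 50% gave 1 gained with Delta1, 25 closed in IgG alone, 30 in LSK and not IgG and 0 in IgG and not LSK. Peak midpoints, flanks of 250 bp and 1 kb windows each gave 1 gained with Delta1, and the last also 2 in IgG and not LSK, which was 0 with predicted genes left out. With overlapping head-to-head pairs added, 11 were closed in IgG alone, 19 in LSK and not IgG and 2 in IgG and not LSK. Leaving out a library gave 0 to 2 gained with Delta1 (2 without DN1 replicate 1, 1 without DN1 replicate 2 or LSK replicate 2), 0 to 2 gained in DN2 (2 without DN1 replicate 2, 1 without DN1 replicate 1), 0 to 1 lost from DN2 (1 without DN2b replicate 2), 4 to 10 closed in IgG alone and 8 to 15 in LSK and not IgG (10 and 15 without IgG replicate 1), and 1 to 2 in IgG and not LSK (2 without LSK replicate 3). The cause was not tested. Another 288 values stayed on the same side, and 0 reversed. No paired analysis was possible because the labels carry no replicate numbers; those used here name libraries in accession order. Unknown read depth limits each statement about a missing peak.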
